A study of Mus musculus with 17 samples.

Results

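Feedback and target genes of Wnt signaling were followed through thymic lymphomas of Tcf1-/- mice, Tcf1-/- thymi without a tumor and Tcf1+/- thymi. The 10 genes were Axin2, Nkd1, Nkd2, Rnf43, Znrf3, Apcdd1, Fzd7, Tnfrsf19, Trib2 and Bmp4, chosen by name as transcripts that respond to or restrain the pathway, out of 18194 genes with a probe set annotated to them alone. They had 28 probe sets, and the brightest one of each gene, by its mean signal across 17 arrays, stands for it. Of the 10 genes, 9 passed the filter on low signal and were tested among 13756 genes, and Bmp4 did not. The first group held 8 thymi with a lymphoma from C57Bl/6 mice homozygous for the ΔVII allele of Tcf1 (Tcf1-/-), the second 4 thymi of Tcf1-/- mice of the same strain without a tumor and the third 5 thymi of heterozygous mice (Tcf1+/-), so that every mouse carried at least 1 copy of the ΔVII allele. The allele is in every cell of the mouse. RNA came from homogenized thymus, 1 mouse per array, and the values are log2 signals of Affymetrix arrays after Robust Multichip Average (RMA). No purification of cells is given in the labels, which name homogenized thymus, whereas the methods of the study speak of thymocytes. The numbers of the mice are those of the sample titles, and the ages and immunophenotypes of single lymphomas were not used here.

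In canonical Wnt signaling, ligands bind Frizzled receptors with an Lrp coreceptor, β-catenin escapes the destruction complex, and it joins factors of the Tcf/Lef family on DNA. Many genes switched on in this way restrain the pathway again. Axin2 is the most widely used readout, and in the thymus Tcf1 and Lef1 are the family members that thymocytes use to proliferate and to pass to the CD4+CD8+ stage.

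Promoters are given for the pathway's usual readout and for the members whose windows hold a core letter pattern of Tcf/Lef sites. The windows of 250 bases before to 50 bases after a start site come from RefSeq on GRCm38.p6. For the members, windows on 1 chromosome were left out, whereas the share over all windows kept them. Among the windows searched, 8 of the 10 members had one, in 10 windows, and none was of Znrf3 or Apcdd1. The patterns CTTTGA and CTTTGT were searched on both strands, and they cannot match at the same position of 1 strand. Either was present in 31.2% of 32851 windows of the mouse and in 2 of the 10 windows of members, those printed here for Fzd7 and for 1 of the 2 start sites of Tnfrsf19. Capitals mark the match, which reads as the reverse complement in each and begins 129 bases before the start in Fzd7 and 201 bases before it in Tnfrsf19. Both genes rose in lymphomas against Tcf1+/- thymi, as did Nkd1, whose window held no match, and Apcdd1, of which no window was searched. The window of Axin2 held no match either. A match in a window of this size is a description of letters and not a binding site.
Axin2 (chr11:108920099-108920398, plus strand): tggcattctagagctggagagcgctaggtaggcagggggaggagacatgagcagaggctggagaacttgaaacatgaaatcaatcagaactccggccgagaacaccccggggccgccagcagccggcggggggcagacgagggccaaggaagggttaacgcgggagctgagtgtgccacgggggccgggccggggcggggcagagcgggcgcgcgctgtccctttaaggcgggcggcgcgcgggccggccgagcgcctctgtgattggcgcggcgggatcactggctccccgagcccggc
Fzd7 (chr1:59481897-59482196, plus strand): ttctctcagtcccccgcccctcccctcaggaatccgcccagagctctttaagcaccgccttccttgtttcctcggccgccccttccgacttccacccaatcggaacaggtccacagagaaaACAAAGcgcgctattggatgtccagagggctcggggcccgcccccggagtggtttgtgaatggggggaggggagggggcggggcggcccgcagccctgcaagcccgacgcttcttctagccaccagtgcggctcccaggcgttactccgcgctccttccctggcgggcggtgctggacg
Tnfrsf19 (chr14:61037938-61038237, minus strand): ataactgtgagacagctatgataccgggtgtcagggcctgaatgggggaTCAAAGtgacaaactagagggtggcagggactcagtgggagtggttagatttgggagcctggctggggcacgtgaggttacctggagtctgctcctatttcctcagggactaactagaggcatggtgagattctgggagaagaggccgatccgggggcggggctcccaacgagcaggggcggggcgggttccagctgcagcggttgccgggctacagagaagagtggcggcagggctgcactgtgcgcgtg

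A lymphoma, a thymus without a tumor and a control thymus hold different cells, which bears on all values below. The mean log2 signal of 12 macrophage and monocyte markers was 5.88 to 8.43 in lymphomas, 8.86 to 10.89 in Tcf1-/- thymi and 6.76 to 7.91 in Tcf1+/- thymi, and that of 9 B cell markers was 6.82 to 8.05, 9.93 to 11.66 and 7.22 to 7.85 in the same groups. For 11 thymocyte markers these ranges were 10.22 to 11.95, 10.58 to 11.31 and 12.02 to 12.56. Of the 11, 1 was called higher and 0 lower in lymphomas against Tcf1-/- thymi, at a median log2 fold change of -0.165. Against Tcf1+/- thymi 0 were higher and 7 lower. The 1 called higher was Cd3d, a chain of the T cell receptor complex, which averaged 13.65 ± 0.33 in lymphomas (SD, n = 8) and 12.88 ± 0.10 in Tcf1-/- thymi (SD, n = 4). Of 15 markers of thymic epithelial cells, 6 were lower in lymphomas than in thymi of tumor-free Tcf1-/- mice. Fewer cells of a type and less RNA per cell cannot be told apart in such samples. The arrays of lymphomas 1 and 2 and of Tcf1+/- thymi 1 and 2 stood apart from the other 13, with an interquartile range of 2.93 to 3.06 against 3.49 to 3.75. The log2 signal of Gapdh at its 3′ end minus that at its 5′ end, a measure of RNA quality, was 1.12 to 2.63 for these 4 and -0.13 to 0.96 for the other 13, which bears on each value from them. The targeted gene was not analysed here.

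Against tumor-free Tcf1-/- thymi, 2 of the 9 tested members rose, Tnfrsf19 and Trib2, and none fell, where 14.7% of all 13756 tested genes were called, 6.34% as higher and 8.35% as lower. None of the 9 had groups without overlap there, against 4.41% of all genes higher and 6.26% lower without overlap. Against Tcf1+/- thymi 4 rose in lymphomas, Apcdd1, Fzd7, Tnfrsf19 and Nkd1, and none fell, where 12.7% of all genes were called, 8.49% as higher and 4.21% as lower. Only Apcdd1 among the 9 was higher without overlap, and none was lower, against 4.78% and 1.9% of all genes. Tumor-free Tcf1-/- thymi themselves differed from Tcf1+/- thymi in 2 members, Fzd7 and Rnf43, both higher, where 14.8% of all genes were called, 10.1% as higher and 4.7% as lower.

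At an unadjusted p under 0.05 the counts were 5, 6 and 5 of 9 in the same order, where 29.5%, 25.6% and 25.9% of all genes passed. Tnfrsf19 and Rnf43 were low in the Tcf1+/- thymi, where 0 of 5 and 1 of 5 arrays had them above the array's 40th percentile, and passed the filter through the other groups. The median log2 fold change of the 9 members was 0.735 between lymphomas and Tcf1-/- thymi, 0.799 between lymphomas and Tcf1+/- thymi and 0.023 between the groups without a tumor, against 0.099, 0.056 and -0.015 over all tested genes. The comparisons share groups and are not independent of each other.

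Several of these calls rest on the fit. Both calls against Tcf1-/- thymi were lost with no filter on low signal, at adjusted p = 0.053 for each, and with the Y-linked signal as a covariate, at 0.459 for Tnfrsf19 and 0.341 for Trib2. Y-linked transcripts were present in 2 of 8 lymphomas, in 4 of 4 Tcf1-/- thymi and in 4 of 5 Tcf1+/- thymi, and their part in the result was not tested otherwise. With that covariate the calls against Tcf1+/- thymi were kept for Apcdd1 and Fzd7 and lost for Nkd1 (0.273) and Tnfrsf19 (0.0647). Over mice 1 to 5 of both groups the block on mouse number called 4 members in lymphomas against Tcf1+/- thymi, against 2 for the same mice without the block, where Nkd1 was at 0.0420 with it and 0.211 without it. In 1 fit of all 17 arrays Fzd7 and Rnf43 no longer passed between Tcf1-/- and Tcf1+/- thymi (limma adjusted p = 0.0733 and 0.0760).

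**Figure D1:**
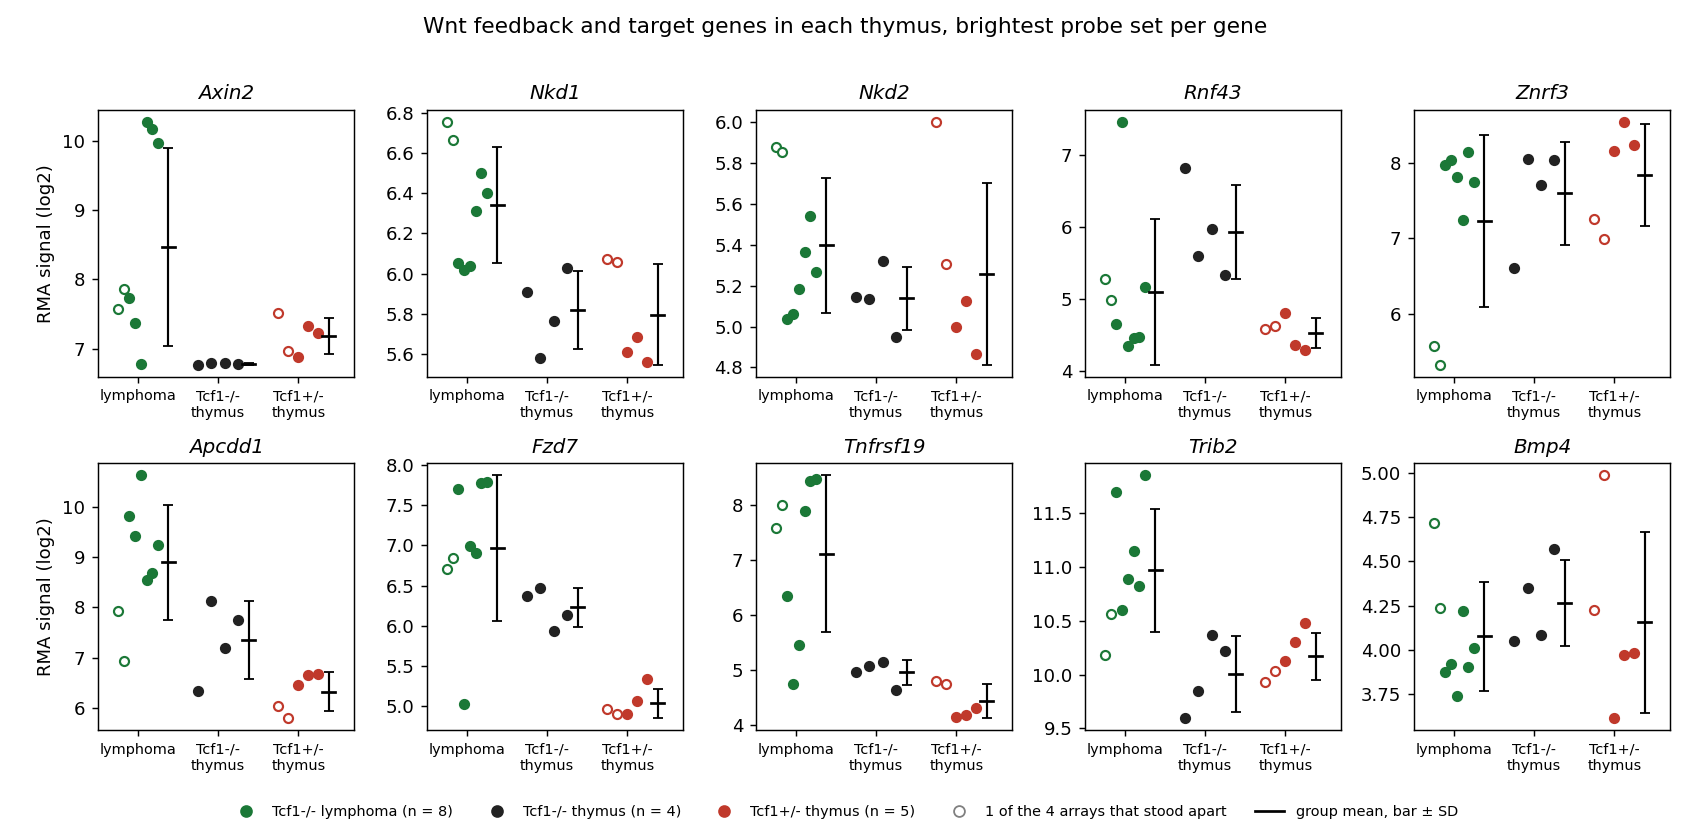
Log2 RMA signal of the brightest probe set of each gene in each thymus, with lymphomas (n = 8), Tcf1-/- thymi (n = 4) and Tcf1+/- thymi (n = 5) from left to right, group mean and SD beside the points and open circles for the 4 arrays that stood apart. Axin2 lies near 10 in 3 lymphomas and below 8 in the other 5, and each panel has its own y axis.

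**Figure D2:**
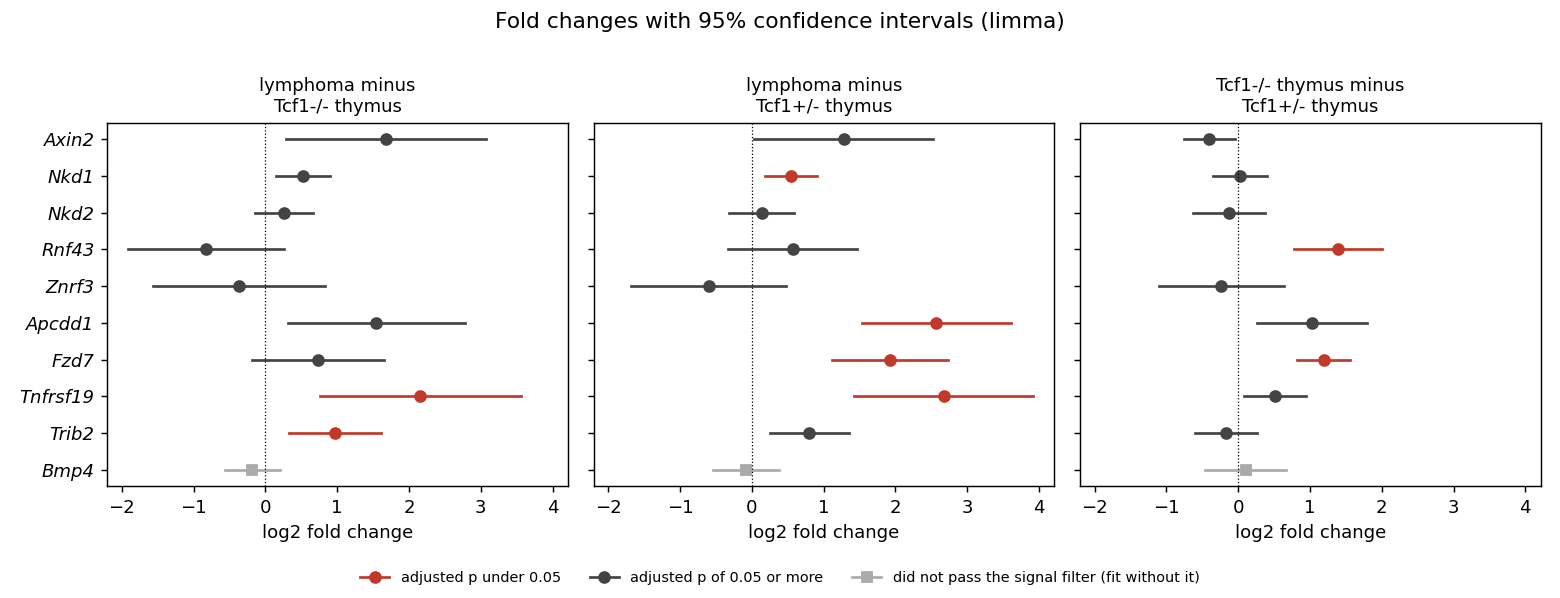
Log2 fold change (x axis) with its 95% confidence interval for each gene (y axis) in the 3 comparisons, from limma, in red where the adjusted p is under 0.05 and dark otherwise. Tnfrsf19 passes in both comparisons of lymphomas, and Bmp4 (squares) comes from the fit without the filter.

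Axin2 encodes a scaffold of the destruction complex and is itself switched on by β-catenin, so that it dampens the signal that induced it. Its log2 signal in the 8 lymphomas had a lowest value of 6.79, a median of 7.80 and a highest value of 10.27. It was 6.77, 6.79, 6.80 and 6.78 in Tcf1-/- thymi and 7.52, 6.97, 6.88, 7.33 and 7.22 in Tcf1+/- thymi. Lymphomas 6, 7 and 8 stood at 10.27, 10.17 and 9.97, and 6 of 8 lymphomas lay above all thymi without a tumor, whereas lymphoma 5 lay among the Tcf1-/- thymi. Lymphomas 6, 7 and 8 also had the highest mean of 10 endothelial markers among lymphomas, 5.62, 5.59 and 5.49 against 5.23 to 5.42 in the others. That mean was 5.44 to 5.60 in Tcf1-/- thymi, with Axin2 at 6.77 to 6.80, and 5.22 to 5.40 in Tcf1+/- thymi. Its part in the Axin2 signal was not tested. Neither the difference of 1.68 from Tcf1-/- thymi (SE 0.65, limma adjusted p = 0.0990) nor that of 1.28 from Tcf1+/- thymi (SE 0.58, adjusted p = 0.181) passed the test. All 4 Tcf1-/- thymi lay below all 5 Tcf1+/- thymi, by 0.40 on average (SE 0.16, adjusted p = 0.136), where 6.11% of all genes had such lower values without overlap. The study names Axin2 and Tnfrsf19 among genes that set its tumors apart on these same arrays, so their direction here is not independent evidence. The study's other evidence on Axin2 was not used here. It reports a raised mean by quantitative PCR in a larger panel of lymphomas, and raised activity of an Axin2-LacZ reporter in tumors.

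A second probe set of Axin2 (1421341_at) was dim, at 4.01 to 5.78 in lymphomas, 4.20 to 4.59 in Tcf1-/- thymi and 4.23 to 4.65 in Tcf1+/- thymi. It was highest in lymphoma 7 but stood at 4.46 in lymphoma 8, so it did not repeat the set of 3.

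Nkd1 and Nkd2 encode naked cuticle proteins, which bind Dishevelled and restrain signaling inside the cell. The brightest probe set of Nkd1 (1429507_at) had a lowest value of 6.02, a median of 6.36 and a highest value of 6.75 in lymphomas. It had 5.91, 5.58, 5.77 and 6.03 in Tcf1-/- thymi and 6.07, 6.06, 5.61, 5.69 and 5.56 in Tcf1+/- thymi. The rise of 0.55 in lymphomas over Tcf1+/- thymi passed the test (SE 0.17, limma adjusted p = 0.0478), and 5 of 8 lymphomas lay above all 9 other thymi. The call was lost, at an adjusted p of 0.0514 to 0.130, when any of lymphomas 1, 2, 6, 7 or 8 or Tcf1+/- thymi 2, 3, 4 or 5 was left out. Against Tcf1-/- thymi the difference was 0.52 (SE 0.18, adjusted p = 0.0636), and the call was gained without lymphoma 4 (adjusted p = 0.0466) or without lymphoma 5 (adjusted p = 0.0483). The call was also lost relative to Abl1 (adjusted p = 0.328), after quantile normalization (0.0616), with the mean of all probe sets (0.0581), with trend and robust variances (0.0525), with the methods' Mann-Whitney U test (0.182) and in the fit over all probe sets (0.0574). With the array set as a block the rise over Tcf1+/- thymi was 0.62 (adjusted p = 0.00143).

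Another probe set of Nkd1 (1429506_at) showed a far wider range. It stood at 8.82, 6.60, 8.98 and 7.59 in lymphomas 3, 6, 7 and 8, at 5.27, 4.29, 4.13 and 4.29 in lymphomas 1, 2, 4 and 5, at 3.84 to 3.98 in Tcf1-/- thymi and at 3.79 to 4.44 in Tcf1+/- thymi. A further probe set (1417278_a_at) had its 4 highest values in the same 4 lymphomas, 7.09, 5.25, 7.49 and 5.77, against 4.00 to 4.15 in Tcf1-/- thymi and 3.96 to 4.39 in Tcf1+/- thymi. Both sets exceeded the 40th percentile in 5 of 8 lymphomas and in 0 of 4 Tcf1-/- and 0 of 5 Tcf1+/- thymi, so they passed the filter through lymphomas alone, and their differences are taken against signals at the low end. In a fit over all 24748 probe sets that passed the filter, the difference of the first set was 2.32 against Tcf1-/- thymi (SE 0.92, adjusted p = 0.120) and 2.20 against Tcf1+/- thymi (SE 0.83, adjusted p = 0.113), and neither passed. Lymphomas 3, 6 and 7 also had the highest mean of 10 fibroblast markers, 6.86, 6.89 and 7.12 against 5.10 to 6.02 in the other lymphomas, 5.61 to 6.31 in Tcf1-/- thymi and 4.98 to 5.36 in Tcf1+/- thymi. The same lymphomas had the highest macrophage marker means, 8.30, 8.43 and 7.79 against 5.88 to 7.42 in the other lymphomas, and the highest means of 4 adipocyte markers, 5.24, 5.66 and 6.05 against 4.03 to 5.17. In Tcf1-/- thymi the macrophage means were 8.86 to 10.89 and the adipocyte means 5.02 to 5.85. In Tcf1+/- thymi they were 6.76 to 7.91 and 4.37 to 4.85. Lymphoma 8, also high on both Nkd1 probe sets, had fibroblast, macrophage and adipocyte means of 6.02, 7.38 and 4.99. The part of these cells in the Nkd1 signal was not tested.

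Nkd2 stayed low and without a call. Its signal was 5.04 at the lowest, 5.32 at the median and 5.88 at the highest in lymphomas, 5.15, 5.13, 5.32 and 4.95 in Tcf1-/- thymi and 6.00, 5.31, 5.00, 5.13 and 4.86 in Tcf1+/- thymi. The 3 groups overlapped, and the limma adjusted p was 0.386 and 0.773 in lymphomas set against Tcf1-/- and Tcf1+/- thymi and 0.800 between the groups without a tumor. In lymphomas its 2 highest values were on the arrays that stood apart, as were those of Bmp4 and of the brightest set of Nkd1.

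**Figure D3:**
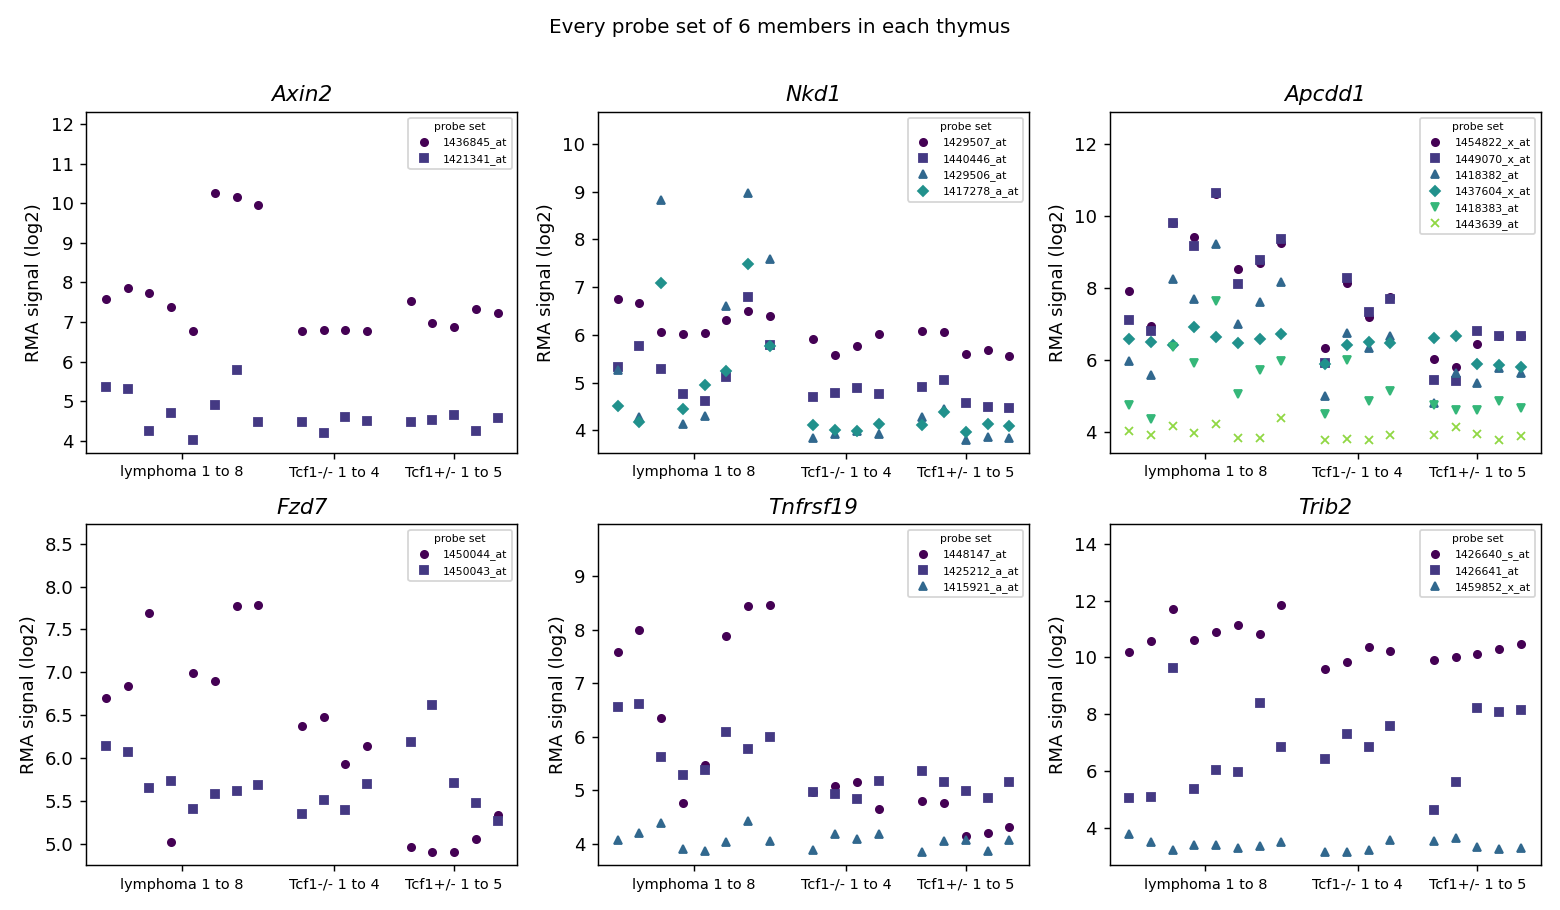
Log2 RMA signal (y axis) of every probe set of 6 members in each thymus (x axis, mice in number order within lymphomas, Tcf1-/- thymi and Tcf1+/- thymi). Probe sets of Nkd1, Fzd7 and Trib2 differ in which samples are high, while 4 of the 6 sets of Apcdd1 share a peak in lymphoma 5.

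Rnf43 and Znrf3 encode membrane ubiquitin ligases that remove Frizzled receptors from the cell surface, and R-spondins block them. Rnf43 had 6.82, 5.59, 5.97 and 5.33 in Tcf1-/- thymi and 4.58, 4.62, 4.81, 4.36 and 4.29 in Tcf1+/- thymi. These groups did not overlap, which holds for 11.2% of all genes in that direction. The rise of 1.40 passed the test (SE 0.28, limma adjusted p = 0.00702). Rnf43 was above the filter's percentile in 4 of 8 lymphomas, 4 of 4 Tcf1-/- thymi and 1 of 5 Tcf1+/- thymi. The rise over Tcf1+/- thymi was thus taken largely against signals at the low end, and its size is uncertain. All 12 macrophage and monocyte markers and 7 of 9 B cell markers rose in the same comparison, and their part in the rise of Rnf43 was not tested. In lymphomas Rnf43 was 4.35 at the lowest, 4.82 at the median and 7.45 at the highest, the last in lymphoma 4, and 7 of 8 lymphomas lay below all Tcf1-/- thymi. Set against Tcf1-/- thymi they differed by -0.83 (SE 0.50, adjusted p = 0.301), and by -1.16 without lymphoma 4 (adjusted p = 0.0168). Set against Tcf1+/- thymi they differed by 0.57 (SE 0.42, adjusted p = 0.462), and by 0.23 without lymphoma 4 (adjusted p = 0.511).

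Znrf3 varied with the set of arrays. Its signal was 5.33 at the lowest, 7.77 at the median and 8.14 at the highest in lymphomas, with 5.58 and 5.33 in lymphomas 1 and 2 and at least 7.24 in the others. It was 6.60, 8.05, 7.70 and 8.03 in Tcf1-/- thymi and 7.25, 6.99, 8.15, 8.54 and 8.24 in Tcf1+/- thymi, again lowest on the 2 arrays that stood apart. Lymphomas differed from Tcf1+/- thymi by -0.60 (SE 0.51, adjusted p = 0.535), which did not pass. Within each set of arrays, however, every lymphoma lay below every Tcf1+/- thymus, with a mean difference of -1.66 among the arrays that stood apart (5.45 against 7.12, n = 2 each) and of -0.49 among the others (7.82, n = 6, against 8.31, n = 3). Among the arrays that stood apart the 3′ excess of Gapdh was 2.63 and 2.33 in lymphomas 1 and 2 and 1.61 and 1.12 in Tcf1+/- thymi 1 and 2, so RNA quality and group moved together there, and its part in the Znrf3 difference was not tested. Of all genes 6.88% were lower without overlap in both sets. With the array set as a block Znrf3 fell by 0.88 (SE 0.21, limma adjusted p = 0.00888), in a fit that called 27.3% of all genes and 12.4% as lower. Fitted alone, the other 6 lymphomas and 3 Tcf1+/- thymi gave an adjusted p of 0.141. A second, dimmer probe set (1437646_at) differed by -0.01 between lymphomas and Tcf1+/- thymi (SE 0.17, adjusted p = 0.980 over all probe sets).

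**Figure D4:**
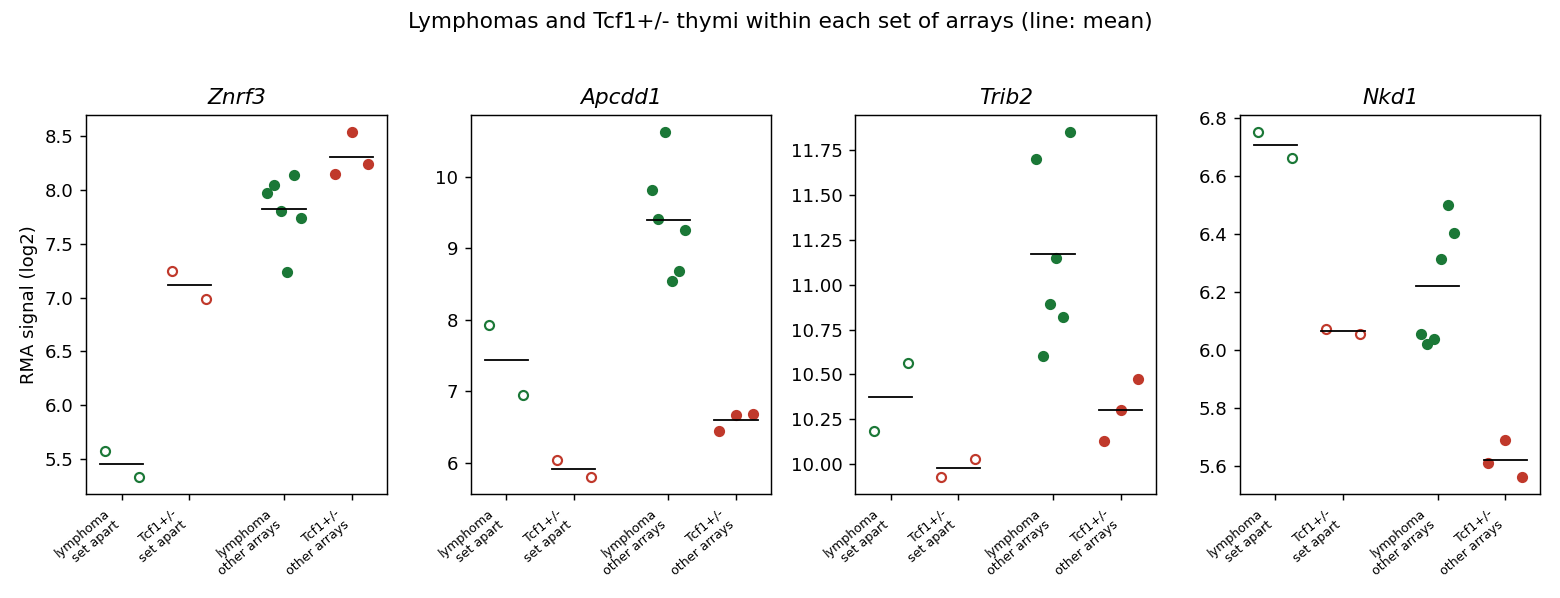
Log2 RMA signal of Znrf3, Apcdd1, Trib2 and Nkd1 (brightest probe sets) in lymphomas and Tcf1+/- thymi, drawn separately for the 4 arrays that stood apart (open) and the other arrays (filled), with the mean as a line. Znrf3 is lower, and the other genes are higher, in lymphomas within each set.

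Apcdd1 encodes a membrane glycoprotein that inhibits signaling at the level of the receptor. Its signal had a lowest value of 6.94, a median of 8.97 and a highest value of 10.62 in lymphomas. It was 6.35, 8.13, 7.19 and 7.76 in Tcf1-/- thymi and 6.04, 5.80, 6.45, 6.67 and 6.69 in Tcf1+/- thymi. Every lymphoma lay above every Tcf1+/- thymus, and the rise was 2.57 on the log2 scale, or 5.94-fold (SE 0.48, limma adjusted p = 0.00382), and held without any 1 mouse. Within the arrays that stood apart lymphomas were 1.51 higher, and within the others 2.79 higher, without overlap in either, as were Nkd1, Tnfrsf19 and Trib2, against 8.21% of all genes.

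Against Tcf1-/- thymi Apcdd1 was 1.54 higher in lymphomas (SE 0.57, adjusted p = 0.0885), a difference that passed once lymphomas 1 and 2, the arrays that stood apart, were left out (2.03, adjusted p = 0.0127) or lymphoma 2 alone was (1.82, adjusted p = 0.0266). Tcf1-/- thymi were 1.03 above Tcf1+/- thymi (SE 0.35, adjusted p = 0.0766), with 3 of 4 above all controls, and 1.37 above them without Tcf1-/- thymus 1 (adjusted p = 0.0104). Of the 6 probe sets of Apcdd1 the 3 brightest rose in lymphomas against Tcf1+/- thymi, by 2.57, 2.51 and 1.99 (adjusted p = 0.00491, 0.0143 and 0.0236 over all probe sets), where 10.1% of all probe sets changed.

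Fzd7 encodes a Frizzled receptor for Wnt ligands that is also a target of the pathway. Its signal was 5.03 at the lowest, 6.95 at the median and 7.79 at the highest in lymphomas, 6.38, 6.48, 5.93 and 6.14 in Tcf1-/- thymi and 4.97, 4.91, 4.91, 5.07 and 5.35 in Tcf1+/- thymi. Lymphoma 4 was the lowest and lay among the controls, and the other 7 lymphomas lay above all Tcf1-/- and all Tcf1+/- thymi. The rise over Tcf1+/- thymi was 1.93 (SE 0.38, limma adjusted p = 0.00490), held without any 1 mouse, and missed the threshold once those 4 arrays were left out (1.92, adjusted p = 0.0523). Tcf1-/- thymi rose by 1.19 against Tcf1+/- thymi without overlap (SE 0.16, adjusted p = 0.00112), in the comparison in which the macrophage and B cell markers rose, and their part was not tested. Lymphomas were 0.74 above Tcf1-/- thymi (SE 0.42, adjusted p = 0.273), and 1.01 above them without lymphoma 4 (adjusted p = 0.0192). The other probe set of Fzd7 (1450043_at) did not share these differences, at -0.12 for lymphomas and -0.36 for Tcf1-/- thymi against Tcf1+/- thymi (adjusted p = 0.823 and 0.516 over all probe sets).

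Tnfrsf19 encodes TROY, a receptor of the TNF receptor family that is a target of β-catenin in other tissues. Its signal in lymphomas had a lowest value of 4.76, a median of 7.73 and a highest value of 8.46. It was 4.97, 5.07, 5.15 and 4.64 in Tcf1-/- thymi and 4.80, 4.76, 4.15, 4.19 and 4.31 in Tcf1+/- thymi. All lymphomas but lymphoma 4 lay above all other thymi. It rose by 2.16 over Tcf1-/- thymi (SE 0.65, limma adjusted p = 0.0406) and by 2.67 over Tcf1+/- thymi (SE 0.58, adjusted p = 0.00856). It exceeded the 40th percentile in 7 of 8 lymphomas, 3 of 4 Tcf1-/- thymi and 0 of 5 Tcf1+/- thymi, so the difference of 2.67 was taken against signals at the low end of the arrays and its size is uncertain. The call against Tcf1-/- thymi was kept only without lymphoma 3, 4 or 5, and was lost without any other 1 mouse of the 2 groups (adjusted p = 0.0625 to 0.109), while that against Tcf1+/- thymi held without any 1 mouse. Both missed the threshold without the 4 arrays that stood apart, at 1.93 (adjusted p = 0.0868) and 2.67 (adjusted p = 0.0655). A second probe set (1425212_a_at) rose by 0.93 (SE 0.25, adjusted p = 0.0299 over all probe sets) and 0.81 (SE 0.23, adjusted p = 0.0396) in the same comparisons. Between Tcf1-/- and Tcf1+/- thymi the brightest set differed by 0.52 (adjusted p = 0.112), and by 0.74 without the 2 control arrays that stood apart (adjusted p = 0.0122).

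Trib2 encodes a pseudokinase that, in mouse, drives leukemia of the myeloid lineage when overexpressed. Its signal was 10.18 at the lowest, 10.86 at the median and 11.85 at the highest in lymphomas. It was 9.59, 9.84, 10.37 and 10.22 in Tcf1-/- thymi and 9.93, 10.03, 10.13, 10.30 and 10.48 in Tcf1+/- thymi, so that 7 of 8 lymphomas lay above all other thymi. The rise against Tcf1-/- thymi was 0.96 (SE 0.30, limma adjusted p = 0.0447), a call kept without lymphoma 1, 2 or 4 and lost without any other 1 mouse (adjusted p = 0.0555 to 0.162). Against Tcf1+/- thymi the difference was 0.80 (SE 0.26, adjusted p = 0.0572), and it passed without lymphoma 1 (0.91, adjusted p = 0.0252) and with the array set as a block (0.71, adjusted p = 0.0248).

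A second probe set of Trib2 (1426641_at) had another order. It was 5.05 to 9.62 in lymphomas, 6.44 to 7.60 in Tcf1-/- thymi and 4.63 and 5.62 in Tcf1+/- thymi 1 and 2 but 8.24, 8.08 and 8.17 in Tcf1+/- thymi 3, 4 and 5. Its differences were -0.50 and -0.40 for lymphomas against Tcf1-/- and Tcf1+/- thymi (adjusted p = 0.722 and 0.847 over all probe sets).

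Bmp4, a secreted growth factor that thymic stroma makes, was at the lower end of the arrays' signals. It was 3.74 at the lowest, 3.97 at the median and 4.71 at the highest in lymphomas, 4.05, 4.35, 4.09 and 4.57 in Tcf1-/- thymi and 4.23, 4.98, 3.62, 3.97 and 3.99 in Tcf1+/- thymi. It was above the 40th percentile on 1 of 17 arrays. In a fit without the filter its differences were -0.19 and -0.08 for lymphomas against Tcf1-/- and Tcf1+/- thymi and 0.11 for Tcf1-/- against Tcf1+/- thymi (adjusted p = 0.554, 0.918 and 0.863).

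The 8 lymphomas differed from each other in which of these genes were high. Over all 8 lymphomas the SD was 1.42 for Axin2 and for Tnfrsf19, 1.14 for Apcdd1, 1.13 for Znrf3, 1.01 for Rnf43, 0.90 for Fzd7, 0.57 for Trib2, 0.33 for Nkd2 and 0.29 for Nkd1, against a median of 0.40 over all 13756 tested genes. An SD of at least that of Axin2 was found in 2.06% of all genes, and 7 of the 9 tested members exceeded the median. The SD of Rnf43 rested on lymphoma 4 and was 0.37 without it, below the median of 0.39 over all genes in the same 7 lymphomas, so that 6 of 9 members exceeded it. That of Fzd7 was 0.49 without the same mouse. That of Znrf3 rested on lymphomas 1 and 2, on arrays that stood apart, and was 0.32 without them, against a median of 0.30 over all genes. For Axin2 the SD was 0.011 in Tcf1-/- thymi and 0.26 in Tcf1+/- thymi.

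The order of the lymphomas differed from gene to gene. Lymphomas 6, 7 and 8, the 3 highest for Axin2, were the 3 highest for 0 of the 8 other tested members on their brightest probe sets and for 5.31% of all genes, a share at which 0 of 8 says nothing particular about the members. Tnfrsf19 came nearest, with lymphomas 8 and 7 highest and lymphoma 2 ahead of lymphoma 6. Fzd7 and Tnfrsf19 both had their highest values in lymphomas 8 and 7 and their lowest in lymphoma 4, which had the highest Rnf43. Apcdd1 was highest in lymphoma 5, where Axin2 was lowest. Since the Axin2 values fall into 2 separate clusters, no correlation over the lymphomas is given.

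**Figure D5:**
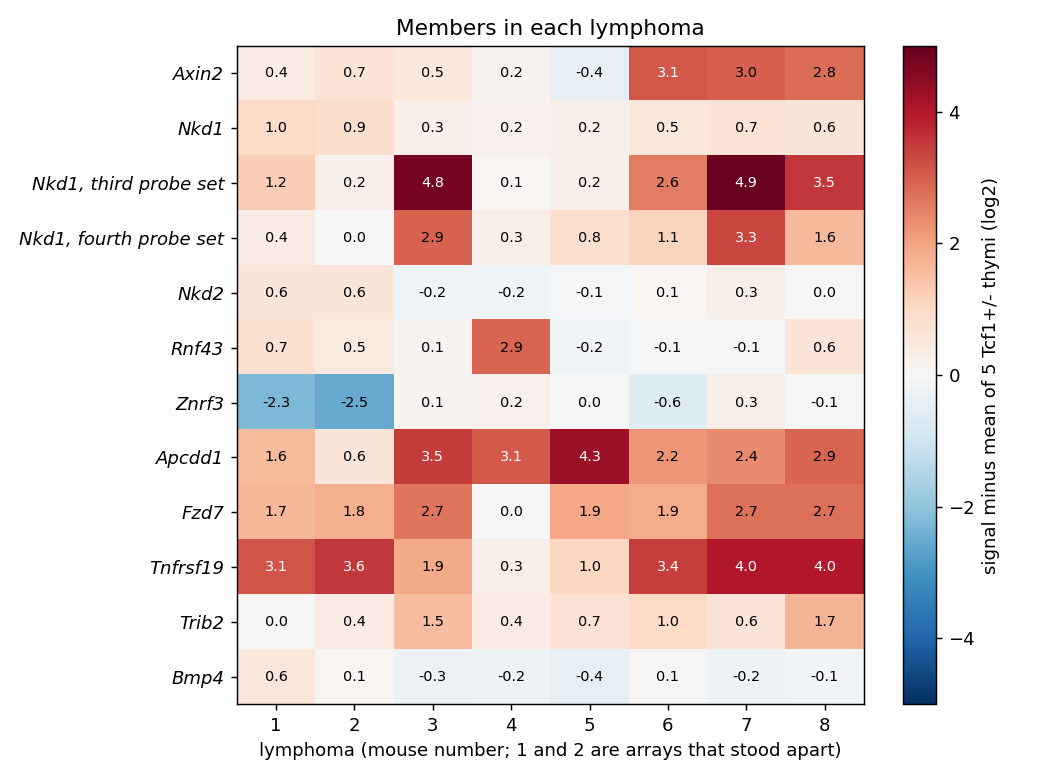
Log2 signal of each member in each lymphoma minus the mean of the 5 Tcf1+/- thymi, red for higher and blue for lower, with lymphomas 1 to 8 as columns and genes as rows. Axin2 is high in lymphomas 6, 7 and 8, Nkd1 (the third and the fourth probe sets by mean signal) also in lymphoma 3, and Rnf43 in lymphoma 4.

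By root mean square difference over the 8 lymphomas, each gene centred on its own mean, the genes nearest to Axin2 were Irs1 (0.45 on the log2 scale), Efr3b (0.46), Apol11b (0.48), Itprid2 (0.48) and Prxl2a (0.48). All 5 had lymphomas 6, 7 and 8 as their 3 highest, as had 5.31% of all genes. They were picked for likeness to Axin2 over these same lymphomas, so their order is no separate result. Irs1, which encodes an adaptor of the insulin receptor, stood at 6.30, 7.48 and 6.54 there and at 4.27 to 4.66 in the other lymphomas. It was 4.07 to 4.92 in Tcf1-/- thymi and 3.92 to 4.52 in Tcf1+/- thymi. Irs1 exceeded the array's 40th percentile only in lymphomas 6, 7 and 8 and in Tcf1-/- thymus 4. Its likeness to Axin2 thus rests on 3 lymphomas over signals at the low end. Efr3b rose by 1.45 in lymphomas over Tcf1+/- thymi (limma adjusted p = 0.0377), and the other 4 passed in no comparison. In Tcf1+/- thymi Efr3b was 4.43 to 4.84, below the 40th percentile of each of these arrays. Its difference was thus taken against signals at the low end, and its size is uncertain. Among the members Tnfrsf19 was the nearest, at 0.93 and rank 185 of 13755 genes, followed by Fzd7 at 1.18 and rank 1735, while Rnf43 and Apcdd1 were at ranks 13362 and 13413. These ranks describe these 8 tumors and carry no test.

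Other genes of the pathway were taken from 6 lists with 109 entries, of which 83 were tested. Lymphomas had 2 higher and 5 lower against Tcf1-/- thymi (8.43% of the 83, against 14.7% of all genes) and 5 higher and 3 lower against Tcf1+/- thymi (9.64% against 12.7%). Tcf1-/- thymi had 7 higher and 5 lower against Tcf1+/- thymi (14.5% against 14.8%). In no comparison was the share called above that of all genes. Of the other 26 entries, 23 did not pass the filter on low signal and 3 were not analysed here.

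Among 15 tested Wnt ligands, Wnt5b rose by 2.91 in lymphomas against Tcf1+/- thymi (8.13 ± 0.78, n = 8, against 5.22 ± 0.39, n = 5; limma adjusted p = 0.00018). Wnt8b was 4.39 ± 0.83 in lymphomas and 4.03 ± 0.39 in Tcf1-/- thymi, against 7.21 ± 0.57 in Tcf1+/- thymi, and both falls passed, at -2.82 (adjusted p = 0.000472) and -3.17 (adjusted p = 0.000158), with its signal above the 40th percentile in 2 of 8 lymphomas and 0 of 4 Tcf1-/- thymi. No ligand passed between lymphomas and Tcf1-/- thymi, where Wnt16 had the smallest adjusted p (0.63, adjusted p = 0.0603). The median over the ligands was 0.066, -0.005 and -0.03 in the order lymphomas over Tcf1-/- thymi, lymphomas over Tcf1+/- thymi and Tcf1-/- over Tcf1+/- thymi.

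Among 15 receptors and coreceptors, Fzd1 fell by 0.82 in lymphomas against Tcf1-/- thymi (limma adjusted p = 0.0332). The Frizzled receptor Fzd5 rose by 1.67 (adjusted p = 0.00189) and the receptor kinase Ryk by 0.56 (adjusted p = 0.0298) in Tcf1-/- against Tcf1+/- thymi. In lymphomas against Tcf1+/- thymi none passed, with Ryk at 1.86 (adjusted p = 0.0734). Of 7 secreted inhibitors, Dkk3 fell by 0.82 in lymphomas against Tcf1-/- thymi (adjusted p = 0.000617) and rose by 0.92 in Tcf1-/- against Tcf1+/- thymi (adjusted p = 0.00158). Dkk3 was above the filter's percentile in 3 of 8 lymphomas, 4 of 4 Tcf1-/- thymi and 1 of 5 Tcf1+/- thymi. Its differences were thus taken largely against signals at the low end, and their sizes are uncertain. Against Tcf1+/- thymi no inhibitor passed in lymphomas, with Sfrp1 at 0.54 (adjusted p = 0.139).

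The destruction complex and Dishevelled proteins, 15 genes, were nearly level. Amer1, which recruits β-catenin degradation to the membrane, rose by 0.60 in lymphomas over Tcf1+/- thymi (limma adjusted p = 0.0246), with 0.56 over Tcf1-/- thymi short of the threshold (adjusted p = 0.0521). The kinase gene Csnk1e fell by 0.99 in Tcf1-/- against Tcf1+/- thymi (adjusted p = 0.0323). Of 12 nuclear factors, Bcl9, a β-catenin cofactor, and Cby1, which binds β-catenin and holds it from Tcf/Lef, rose by 0.76 and 1.02 in lymphomas against Tcf1-/- thymi (adjusted p = 0.0145 and 0.0426). The corepressor Tle3 and the Tcf/Lef factor Lef1 rose by 0.76 and 1.02 against Tcf1+/- thymi (adjusted p = 0.00931 and 0.0223). In Tcf1-/- against Tcf1+/- thymi Cby1 fell by 0.94 (adjusted p = 0.0305) and Bcl9l rose by 0.66 (adjusted p = 0.0418).

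Of 19 tested targets reported for the pathway in other settings, 3 fell in lymphomas against Tcf1-/- thymi and none rose: the matrix gene Fn1 (-4.20), the Notch ligand Jag1 (-2.28) and the cyclin Ccnd2 (-3.91), with limma adjusted p = 0.000412, 0.00211 and 0.00312. Against Tcf1+/- thymi Zcchc12 fell by 2.36 (adjusted p = 1.69e-05) and Ccnd2 fell by 2.96 (adjusted p = 0.00655), while the Rac activator Tiam1 rose by 1.03 (adjusted p = 0.0203). In Tcf1-/- against Tcf1+/- thymi 3 rose and 2 fell, among them Jag1 higher by 2.66 (adjusted p = 0.000167), the adhesion receptor Cd44 higher by 2.38 (adjusted p = 0.000244) and Zcchc12, which fell by 2.62 (adjusted p = 0.000158). Over the same comparisons 11 of 12 macrophage and monocyte markers and 8 of 9 B cell markers fell in lymphomas against Tcf1-/- thymi, and 12 and 7 rose in Tcf1-/- against Tcf1+/- thymi. Their part in the values of Fn1, Jag1, Cd44 and Ccnd2 was not tested. The study reports low expression of Cd44, Fn1 and Jag1, among others, as a mark of its tumor-free Tcf1-/- samples. The direction here was the opposite. Jag1 was higher in these thymi than in both other groups, Cd44 higher than in Tcf1+/- thymi and Fn1 higher than in lymphomas. Jag1 was above the filter's percentile in 2 of 8 lymphomas, 4 of 4 Tcf1-/- thymi and 0 of 5 Tcf1+/- thymi. For Zcchc12 it was 5 of 8, 1 of 4 and 5 of 5 in the same order. The differences of both genes were thus taken largely against signals at the low end, and their sizes are uncertain.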

How the data were processed

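The authors deposited log2 signals of 45101 probe sets on 17 Affymetrix arrays, summarized by RMA in R and Bioconductor. The version of RMA, and whether all arrays were normalized together, are not given in the sources used here. The deposited arrays were not alike in distribution, with interquartile ranges of 2.93 to 3.75 and a 40th percentile of 4.69 to 4.98. Groups came from sample titles and strains. Genes above the 40th percentile of the array on at least 4 arrays were tested with limma 3.58.1 in R 4.3.3, fitted to 1 pair of groups at a time with moderated variances, adjusted by Benjamini-Hochberg over all tested genes, and called at an adjusted p under 0.05. The fits were tested on simulated data. Alternatives were other filters, probe sets, scalings and covariates, left-out mice and the methods' Mann-Whitney U test.

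The members, the lists and the tests were chosen with earlier results of these data known. Genes named beside the members are, per list and comparison, up to 3 called genes with the smallest adjusted p, or the 1 with the smallest where none was called, and the 5 most like Axin2. Over the pathway and marker lists, 7 entries were not analysed here.

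Mice of the lymphoma and Tcf1+/- groups with the same number had deviations from their group means that correlated at 0.246 to 0.625 over 5 numbers. The Tcf1+/- thymus of the same number was the best match for lymphomas 1 and 3 only. Numbers 1 and 2 were the arrays that stood apart in both groups, so a link by number and the set of arrays cannot be told apart. Blocking on mouse number gave 4 called members and 1784 called genes there, against 2 and 686 for the same mice without the block. The other 2 comparisons gave correlations of -0.189 to 0.091 and -0.286 to 0.12. In the reported fits the numbers were not taken as pairs in any comparison. The number of mice limits the precision.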

Additional observations from a re-analysis of the deposited data

Results flagged for a closer look

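Of 30 groups of values of members (10 genes in 3 groups), 2 held a sample far from the others. Chance gives about 1 in 20, and the count found is close to that. Both samples were lymphoma 4. Its Rnf43 signal was 7.45, the highest of the 8 lymphomas, with a gap to the next of 0.701 of the whole range. Its Fzd7 signal was 5.03, the lowest of the 8, with a gap of 0.609 of the range. Lymphoma 4 also had the lowest Tnfrsf19, the lowest Lef1 (11.08) and the lowest mean of the fibroblast markers among the lymphomas (5.10), and it had the highest means of the B cell markers (8.05) and of the thymic epithelial markers (6.19). Their part in its Rnf43 and Fzd7 signals was not tested. It was 1 of 2 lymphomas with Y-linked transcripts.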

How the results depend on the processing

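For lymphomas against Tcf1-/- thymi, 2 members were called in the reported fit. The count was 5 with all 17 arrays in 1 fit, 1 with the mean of all probe sets or the second brightest probe set, and 0 with no filter, the Y-linked signal as a covariate or the methods' Mann-Whitney U test. With the replicate block (mouse number) it was 0, and 1 for the same mice without the block. Leaving out 1 mouse gave 0 to 5. For lymphomas against Tcf1+/- thymi, 4 were called, against 2 with the second brightest probe set, without the 4 arrays that stood apart, with the Y-linked covariate or for the mice of the block without it, and 1 with the Mann-Whitney test. Leaving out 1 mouse gave 3 to 4. For Tcf1-/- against Tcf1+/- thymi, 2 were called, against 0 with all 17 arrays in 1 fit or the Mann-Whitney test and 1 with the 60th percentile filter, the mean of all probe sets or the second brightest. Leaving out 1 mouse gave 2 to 3, and the replicate block 2. The Mann-Whitney test called 0 of all genes in that last comparison, with 2979 at an unadjusted p under 0.05.

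Counts of all called genes moved by over 1.5 times as follows. Against 2020 for lymphomas over Tcf1-/- thymi there were 584 with the replicate block (951 for the same mice without it), 1307 relative to Abl1, 387 with the Y-linked covariate, 1014 without Tcf1-/- thymus 1 and 1271 without Tcf1-/- thymus 2. Against 1747 for lymphomas over Tcf1+/- thymi there were 686 for the mice of the block without it (1784 with it), 1039 relative to Abl1, 3752 with the array set as a block, 2871 within the 4 arrays and 1122 with the covariate. Against 2037 for Tcf1-/- over Tcf1+/- thymi there were 1257 with the block.

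Directions turned as follows. In lymphomas against Tcf1-/- thymi, Znrf3 was 0.16 with the second brightest probe set, 0.23 without the 4 arrays and 0.0124 with the Y-linked covariate, Fzd7 was -0.22 with that covariate and Trib2 -0.50 with the second brightest set. In lymphomas against Tcf1+/- thymi, Nkd2 was -0.0218 with the covariate and -0.0335 on its probe set 3 by mean signal, and Fzd7 was -0.12 and Trib2 -0.40 on the second brightest. In Tcf1-/- against Tcf1+/- thymi, Nkd1 was -0.0362 for the mice of the replicate block with or without it, -0.0216 with the mean of probe sets, -0.0728 after quantile normalization, -0.0499 relative to Abl1, and -0.12 and -0.0725 on its probe sets 3 and 4. There Nkd2 was 0.14 without the 4 arrays, and on the second brightest sets Fzd7 was -0.36, Tnfrsf19 -0.13 and Trib2 0.10. Leaving out 1 mouse moved Nkd1 between -0.0458 and 0.10, Nkd2 between -0.22 and 0.0643 and Znrf3 between -0.45 and 0.0949. The cause was not tested. Between 7 and 8 tested members exceeded the median SD over lymphomas under each alternative but leaving out 1 lymphoma, which gave 6 to 7. Fits of single probe sets, the spread without 1 lymphoma, and fits of the same mice without the block and within the 4 arrays that stood apart were chosen after seeing the data.

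Y-linked transcripts were present in 2 of 8 lymphomas, 4 of 4 Tcf1-/- and 4 of 5 Tcf1+/- thymi, so sex and group cannot be told apart fully. Probe sets at low signal have the least precision.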
